A study of Homo sapiens with 8 samples.

Results

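FK228, also called romidepsin, was given at 20 nM for 10 h to HCT116 cells, an established human colorectal carcinoma line, and 2 FK228 arrays were set against 2 vehicle arrays. These 4 arrays were chosen by their labels out of 8 in the series. The other 4 came from cells treated in the same way with largazole at 20 nM or with SAHA (vorinostat) at 2 µM, 2 arrays each, and were used to fit the error and to ask which changes were seen with FK228 only. In every group 400000 cells were plated in a well of a 6-well dish the day before treatment, and total RNA was hybridised to Affymetrix Human Genome U133 2.0 arrays. Largazole and FK228 were synthesised for the study and SAHA was bought. All 4 groups share the line, the medium and the exposure time, and HCT116 is a single line, so the values describe this line alone.

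Histone deacetylases remove acetyl groups from lysines of histones and of other proteins, and their inhibition raises acetylation and changes the transcription of genes in both directions. FK228 is a bicyclic depsipeptide whose disulfide is reduced inside the cell, which frees a thiol that binds the zinc ion in the active site of class I enzymes. Largazole is a cyclic depsipeptide whose thioester is hydrolysed to a thiol, and SAHA is a hydroxamic acid that binds the same zinc. In colorectal cancer cells this class of compound is known for inducing the CDK inhibitor CDKN1A, slowing the cell cycle and causing cell death.

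The values are log2 levels of probe sets, with array medians between 4.47 and 4.51, so a change is relative to the middle of each array. A difference of 1 on this scale is a 2-fold change. Genes counted as called had an adjusted p under 0.05 in limma. The source of the duplicates is not labelled beyond that word, so p-values measure the spread between these samples, which may be technical. With 2 arrays a group the precision was modest. The 95% confidence limits of a probe set's change lay 0.257 to either side at the median over the tested probe sets. As markers of the line, EPCAM stood at 12.74 and 12.42 in the vehicle arrays, KRT18 at 12.79 and 12.87, and CDH1 at 9.41 and 9.40, while the intestinal genes CDH17, GPA33 and LGALS4 stayed below the level filter of 4.49. Of the leukocyte markers, PTPRC lay between 2.47 and 2.64 in the 4 arrays, and CORO1A, an actin-binding protein, was the only called member, at 5.82 and 5.78 with vehicle and 8.48 and 8.77 with FK228. Of 14 leukocyte markers 5 were tested, and the list's summed level was 8.05 and 7.99 with vehicle and 9.13 and 9.32 with FK228, while PTPRC stayed below the filter. Of 14 fibroblast and endothelial markers 6 were tested and 1, COL1A1, rose, with summed levels of 8.59 and 8.52 against 8.90 and 8.75. Among 12 colorectal epithelial markers 9 were tested, and with FK228 CDH1 rose by 0.69 and EPCAM fell by 0.46. Their summed levels were 14.49 and 14.46 against 14.46 and 14.48. For other epithelia 8 of 14 markers were tested and 1, PAX8, fell, with summed levels of 9.09 and 9.10 against 9.02 and 9.04. The part of these markers in the results was not tested. In RNA from a whole culture, fewer cells of a type and less RNA per cell cannot be told apart.

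FK228 changed genes in both directions in similar numbers. Of 13381 tested genes, 7060 were called, 52.8% of all, with 3440 higher (25.7%) and 3620 lower (27.1%). The share called was 49.1% when the 4 FK228 and vehicle arrays were fitted alone, and 43.1% to 52.6% with any 1 of the 8 arrays left out. In each of the 7060, both FK228 arrays lay outside the range of the vehicle arrays. With 2 arrays a group a call nearly requires this, so it adds no support, and the share among all tested genes is not given here. The change reached 2-fold in 826 higher genes (6.17%) and 1031 lower genes (7.7%). The median change over all tested genes was 0.01. Small changes made up the largest share: 1522 rises and 1425 falls were under 1.5-fold, while 28 rises and 27 falls were 8- to 16-fold. Beyond that, 12 genes were at least 16-fold lower and 4 at least 16-fold higher. The split between rises and falls depended on scaling, since levels scaled to equal medians of the ribosomal protein genes gave 3778 higher and 3275 lower.

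**Figure D1:**
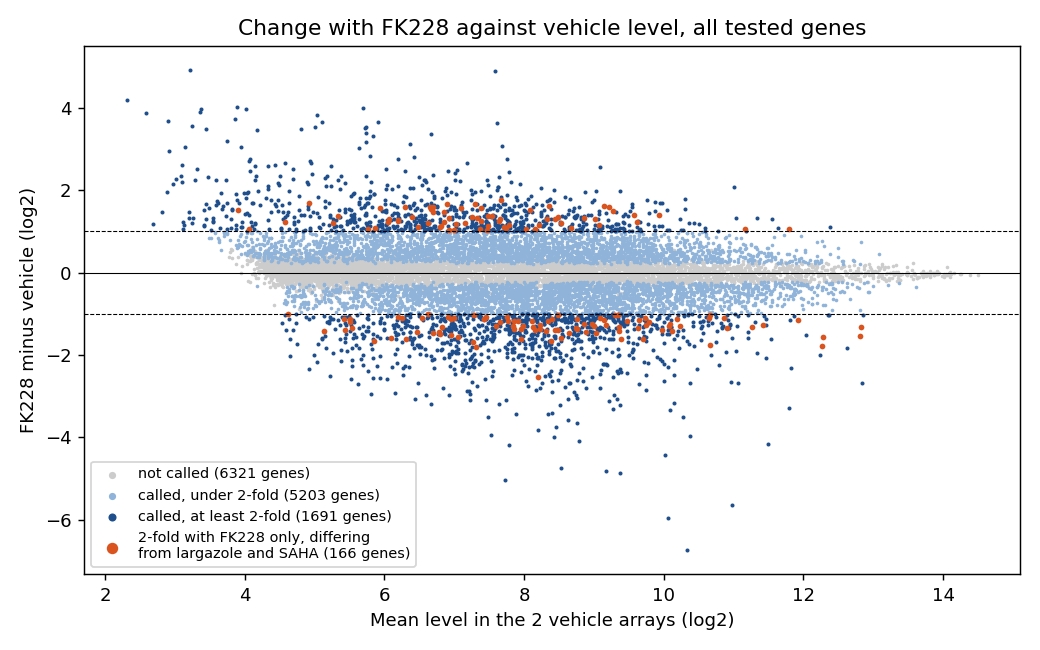
Each point is 1 of 13381 tested genes, with its mean log2 level in the vehicle arrays on the horizontal axis and FK228 minus vehicle (log2) on the vertical axis; dashed lines mark a 2-fold change. The largest rises start from low or middle vehicle levels and the largest falls from middle or high ones, and the 69 rises and 97 falls in orange, which changed 2-fold with FK228 only and differed from both other compounds, lie between -2.54 and 1.76.

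Some changes started from or ended at levels below the filter. Of the 826 genes at least 2-fold higher, 108 had a vehicle mean below the level filter, and of the 1031 at least 2-fold lower, 131 had an FK228 mean below it. The size of those changes is less certain, because log2 levels near the floor of an array flatten. A gene with a low vehicle level could pass the filter through treated arrays alone, which favours rises among such genes. Of all called genes, 227 of 3440 higher and 1 of 3620 lower had a vehicle mean below the filter. The calls of those rises are therefore partly fixed by the filter. Where a gene had several tested probe sets, all of them moved the same way for 407 of 433 genes at least 2-fold higher and for 459 of 530 at least 2-fold lower.

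A 2-fold change with FK228 and not with largazole or SAHA was seen for 247 higher genes (1.85%) and 320 lower genes (2.39%). Most of these were not silent with the other compounds. The median change of the 247 was 1.12 with FK228, 0.74 with largazole and 0.81 with SAHA, and that of the 320 was -1.16, -0.74 and -0.80. At least 1 of the other compounds moved 226 of the 247 and 283 of the 320 by 1.5-fold or more in the same direction. The 3 comparisons with vehicle share the vehicle arrays, and SAHA was given at another dose than the depsipeptides.

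The direct comparisons of FK228 with each other compound use no vehicle array but share the FK228 arrays with the comparison with vehicle. FK228 differed from largazole, given at the same dose, at 1214 genes (9.07%) and from SAHA at 823 (6.15%). Among the genes changed 2-fold with FK228 only, 69 higher (0.516%) and 97 lower (0.725%) differed from both other compounds in these comparisons. The median change of the 69 was 1.29 with FK228, 0.64 with largazole and 0.70 with SAHA, and that of the 97 was -1.29, -0.58 and -0.67. Of all genes at least 2-fold changed with FK228, 141 rises and 234 falls were larger with FK228 than with both other compounds in limma. Under the same test 0 rises and 0 falls were smaller than with both, against 11 and 3 at an unadjusted p under 0.05. These genes were selected for a 2-fold change in the same FK228 arrays. That selection favours larger changes with FK228, so no conclusion about the strength of the compounds is drawn from these counts.

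Each count of genes that differ from both compounds rests on every array of the 3 treated groups. In fits that left out 1 array, the 69 rises became 19 and 8 without the first or second FK228 array, 9 and 23 without the first or second largazole array, and 10 and 21 without the first or second SAHA array. The 97 falls became 24 and 22, 15 and 28, and 9 and 23 in the same order. Without the level filter the counts were 36 and 42, with an intensity trend and a robust prior they were 116 and 154, the stricter filter gave 114 rises, and a block for the replicate number gave 148 falls. The change against vehicle stayed called in all 8 such fits for all 69 and all 97 genes. Only 5 falls, those of ARID5B, IRF2BP2, MYC, MYEOV and ZFP36L1, met every criterion in all 8 fits, and 0 rises did; EHD1, LIN37, PLCXD1 and TPRG1L met it in 7.

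The promoters of genes that lead the rises and falls with FK228 only are shown here to give the letters that the promoter counts further on refer to. They are RefSeq sequences on GRCh38.p14, the 250 bases before the listed start, written 5′ to 3′ on the gene's strand, with matches in capitals to GGGCGG or its complement, to CCAAT or its complement, or to TGACTCA or its complement. EHD1, the largest of the FK228-only rises that differed from both compounds, is at chr11:64879694-64879943 on the minus strand, at the first of 2 listed starts. RASD1 is at chr17:17496396-17496645 on the minus strand.
EHD1: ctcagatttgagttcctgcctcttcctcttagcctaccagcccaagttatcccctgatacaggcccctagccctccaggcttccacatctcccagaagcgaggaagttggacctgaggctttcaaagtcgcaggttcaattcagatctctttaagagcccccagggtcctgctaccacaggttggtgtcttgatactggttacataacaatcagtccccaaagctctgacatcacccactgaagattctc
RASD1: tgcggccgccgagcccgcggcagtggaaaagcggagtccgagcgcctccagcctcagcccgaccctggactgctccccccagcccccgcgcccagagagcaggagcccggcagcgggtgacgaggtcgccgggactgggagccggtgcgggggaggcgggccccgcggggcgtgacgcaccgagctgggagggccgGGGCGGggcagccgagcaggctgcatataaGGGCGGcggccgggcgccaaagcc
The EHD1 window held none of the searched letters, and the RASD1 window held GGGCGG 2 times. Among the falls, WNT16 is at chr7:121328750-121328999 and RUNX2 at chr6:45328080-45328329, at the first of 2 listed starts, both on the plus strand.
WNT16: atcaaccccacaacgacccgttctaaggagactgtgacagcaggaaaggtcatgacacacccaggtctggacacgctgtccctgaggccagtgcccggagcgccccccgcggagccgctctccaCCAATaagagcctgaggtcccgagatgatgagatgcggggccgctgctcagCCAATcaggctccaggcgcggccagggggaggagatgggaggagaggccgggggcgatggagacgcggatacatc
RUNX2: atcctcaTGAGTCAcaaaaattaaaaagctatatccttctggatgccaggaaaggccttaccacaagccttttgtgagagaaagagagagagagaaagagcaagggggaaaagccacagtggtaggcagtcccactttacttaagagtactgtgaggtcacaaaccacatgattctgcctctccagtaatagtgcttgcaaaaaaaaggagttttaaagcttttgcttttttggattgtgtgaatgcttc
The WNT16 window held CCAAT 2 times, and that of RUNX2 held TGACTCA once, on the opposite strand. A match is a description of letters and does not show that a protein binds there.

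The genes that follow have the largest differences from both other compounds among the FK228-only rises and falls, so their differences describe how they were chosen. EHD1, an ATPase of endocytic recycling, stood at 7.70 and 7.64 in the vehicle arrays, 9.43 and 9.44 with FK228, 8.30 and 8.15 with largazole and 8.61 and 8.22 with SAHA. Its FK228 arrays lay above all 6 others, and it rose 3.4-fold (1.76 ± 0.132, SE, adjusted p = 2.72e-05, limma), against 0.56 with largazole and 0.75 with SAHA. RASD1, a Ras-like GTPase known for its induction by glucocorticoids, stood at 5.06 and 4.79 with vehicle and 6.59 and 6.64 with FK228. It rose 3.23-fold with FK228, while the change was 0.82 with largazole and 0.18 with SAHA, the latter not called. RRAD, another small GTPase, stood at 5.46 and 5.07 with vehicle and 6.57 and 6.39 with FK228. It was called with neither largazole (0.33) nor SAHA (0.03), and the direct differences were 0.88 from largazole (adjusted p = 0.0154) and 1.18 from SAHA (adjusted p = 0.00963).

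CHAC1, an enzyme that degrades glutathione and a target of the ATF4 stress response, stood at 5.70 and 5.84 with vehicle and 6.79 and 6.84 with FK228. It also was called with FK228 alone, with changes of 1.05 for FK228, 0.31 for largazole and -0.02 for SAHA. RRP9, a protein of the U3 small nucleolar particle that processes ribosomal RNA, was at 7.23 and 7.50 with vehicle and 8.36 and 8.52 with FK228, and it too was called with neither other compound. SEC14L5, PLEKHO2, TCN2 (the vitamin B12 carrier transcobalamin), MIGA2 (a protein of mitochondrial fusion) and ARID3B (a DNA-binding protein) rose by 1.28 to 1.67 with FK228, by 0.41 to 0.79 with largazole and by 0.56 to 0.91 with SAHA. SEC14L5 started from 3.95 and 3.84, below the level filter.

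Among the falls, WNT16, a Wnt ligand, stood apart. It was at 8.45 and 7.96 with vehicle and at 5.79 and 5.52 with FK228. It fell 5.83-fold with FK228 (-2.54 ± 0.221, SE, adjusted p = 5.58e-05, limma), against -0.57 with largazole, which was not called, and -0.91 with SAHA. RUNX2, a runt-family transcription factor known from bone, was at 5.73 and 5.34 with vehicle and 4.17 and 4.20 with FK228, a fall of 1.35 on the log2 scale to below the level filter. The change was 0.16 with largazole and -0.12 with SAHA, neither called, and 1 of its 2 probe sets showed the fall. ZFP36L1, which binds AU-rich elements and promotes mRNA decay, went from 9.79 and 9.61 to 8.10 in both FK228 arrays. It fell 3.04-fold with FK228 and differed from largazole by -1.43 (adjusted p = 0.00254) and from SAHA by -1.21 (adjusted p = 0.0065).

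The other falls chosen in this way included regulators of Wnt and Ras signalling. TCF7L2, the main TCF factor of Wnt signalling in the gut, was at 12.40 and 12.14 with vehicle and 10.49 and 10.46 with FK228, and all 7 of its probe sets moved down. SPRED1, an inhibitor of Ras signalling to ERK, was at 8.43 and 8.21 with vehicle and 7.09 and 6.70 with FK228, and was called with FK228 alone. IRF2BP2, a corepressor, was at 9.47 and 9.26 with vehicle and 8.08 and 8.04 with FK228, with a change of -0.05 for largazole and -0.31 for SAHA. Of its 6 probe sets, 4 moved down. FTX, a noncoding RNA of the X-inactivation centre, REV3L, the catalytic subunit of translesion polymerase zeta, BCAR3 and MYEOV fell by 1.34 to 1.80 on the log2 scale with FK228.

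MYC and ARID5B are given because they met every criterion with any array left out, which was found after their values were seen. MYC, the proto-oncogene and growth regulator, was at 10.88 and 10.91 with vehicle, 9.45 and 9.66 with FK228, 10.55 and 10.62 with largazole and 10.38 and 10.39 with SAHA. The FK228 arrays lay below all 6 others, and the changes were -1.34, -0.31 and -0.51. ARID5B, a DNA-binding protein, was at 8.45 and 8.42 with vehicle and 6.97 and 7.10 with FK228, with changes of -1.40, -0.36 and -0.62 for FK228, largazole and SAHA.

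**Figure D2:**
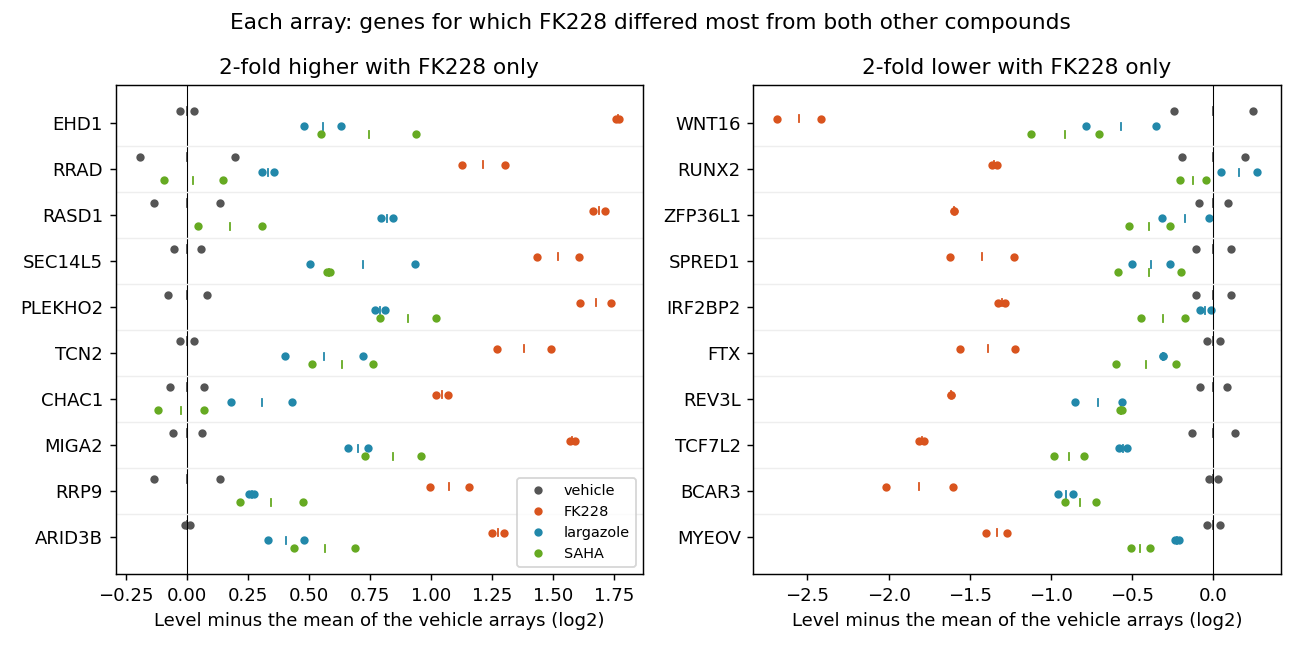
Each dot is 1 array, as its log2 level minus the mean of the vehicle arrays, for the 10 rises and the 10 falls whose smaller difference from largazole and SAHA was largest; short bars are group means of 2 arrays. For every gene shown the FK228 dots lie beyond the dots of all other groups, from EHD1 at 1.76 to WNT16 at -2.54. This separation follows from how the genes were chosen.

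A stricter reading asks for a 2-fold change with FK228 and under 1.5-fold with both other compounds, which left 21 rises (0.157%) and 37 falls (0.277%). Neither other compound was called at 5 of the 247 rises, namely LINC01554, RRAD, RRP9, FAM174B and CHAC1. For LINC01554 and FAM174B the direct differences did not pass, with adjusted p of 0.513 and 0.261 against largazole. Neither was called at 13 of the 320 falls, among them RUNX2, IRF2BP2, SPRED1 and FTX.

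Beyond the 10 largest rises (SYT11, DHRS2, NEDD9, TNFRSF19, CRISPLD2, SNAI2, PMEPA1, IGFBP3, ENPP2 and HEY1), the next 15 rose by 3.31 to 3.74 on the log2 scale. Among the 10, SYT11, NEDD9, TNFRSF19, SNAI2, PMEPA1, IGFBP3 and ENPP2 started from vehicle means below the level filter. All were ranked by their change in the same FK228 arrays, which favours larger changes with FK228 than with the other compounds. CCN2, a matricellular protein, went from 3.95 and 3.77 with vehicle to 7.53 and 7.67 with FK228, a 13.4-fold rise from below the level filter. IRF7, the interferon regulatory factor that drives type I interferon genes, went from 5.93 and 5.90 to 9.46 and 9.66. IRF7 rose 12.5-fold, and the FK228 change of 3.65 exceeded those of largazole (2.69, adjusted p of the difference = 0.00634) and SAHA (2.04, adjusted p of the difference = 0.00234).

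FOS, an AP-1 subunit, went from 5.72 and 5.76 to 9.10 and 9.16, a 10.5-fold rise, and CYSRT1 from 5.85 and 5.82 to 9.15 and 9.13, a 9.89-fold rise. Both rose more with FK228 than with either other compound. CXCR4, the chemokine receptor, went from 4.98 and 5.03 to 8.56 and 8.53, and its change of 3.54 did not differ by the test from that with largazole (3.43, adjusted p = 0.583) or SAHA (3.16, adjusted p = 0.0848). DKK4, a secreted Wnt antagonist, went from 4.04 and 4.30, below the level filter, to 7.45 and 7.80. DKK4 differed from SAHA (1.99, adjusted p of the difference = 0.00441) and not from largazole (3.23, adjusted p of the difference = 0.363).

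The others of these 15 rises were SSBP2, EPPK1 (epiplakin), CEP192P1, TENT5C, PAG1, MXD1 (a MAX partner that opposes MYC), ACSBG1, DACT3 and ETV7. The vehicle arrays of ETV7, CEP192P1 and ACSBG1 lay below the level filter, at 2.82 and 2.98, 3.42 and 3.07, and 3.62 and 3.28. Only 1 of the 2 probe sets of ETV7 showed the rise, and 4 of the 5 of EPPK1 did.

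Beyond the 10 largest falls (PDE4B, HMGA2, PCDH7, MKX, CYP24A1, NRIP1, EHF, ITPRIPL2, FAM83B and EREG), the next 15 fell by 3.31 to 4.10 on the log2 scale. As with the rises, ranking by the change in the same FK228 arrays favours larger falls with FK228 than with the other compounds. HOXB8, a posterior homeobox factor, went from 8.80 and 8.75 to 4.38 and 4.98, a 17.1-fold fall. TGIF1, a homeodomain repressor of TGF-beta signalling, went from 10.34 and 10.43 to 6.35 and 6.49, a 15.6-fold fall. TGIF1 fell far more with FK228 than with largazole (-1.64, adjusted p of the difference = 0.000194) or SAHA (-1.96, adjusted p of the difference = 0.000645), although the probe set left when those ending in _x_at or _s_at were dropped gave -0.17 (adjusted p = 0.271).

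ZMYND8, a reader of acetylated histones, went from 8.41 and 8.46 to 4.07 and 4.79, with 3 of 4 probe sets moving down and a value of 0.02 from the set left after that same change. NR2F1, an orphan nuclear receptor, went from 10.41 and 10.12 to 6.73 and 6.79, and SMAD1, a transducer of BMP signals, from 9.44 and 9.10 to 5.74 and 6.19. NR2F1 and SMAD1 fell more with FK228 than with both other compounds. TET3, an oxidase of methylated cytosine, went from 8.10 and 7.66 to 4.35 and 4.53.

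Of this set, ZBED2 alone fell as far with the other compounds, at -3.94 with FK228, -3.92 with largazole and -4.24 with SAHA, with adjusted p of 0.926 and 0.187 for the differences. SAMD13, SLC16A14 (a monocarboxylate transporter family member), SOCS6 (a suppressor of cytokine signalling), JADE2, ZC3H12C, ZBTB1, CALHM2 and HS3ST1 (a heparan sulfate sulfotransferase) each fell more with FK228 than with both other compounds.

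In the gene lists that follow, counts are read against the shares among all tested genes, 25.7% higher and 27.1% lower. Many members are named for the size of their change in the FK228 arrays, which favours larger changes with FK228 than with the other compounds. List members described below as changed with FK228 only and differing from both other compounds met these criteria with all 8 arrays. Each of them lost a criterion in some fit that left out 1 array. Of the class I deacetylases, HDAC1 and HDAC2 were not called and HDAC3 rose. HDAC1 was at 11.89 and 11.97 with vehicle and 12.16 and 12.02 with FK228 (0.16, adjusted p = 0.176), and HDAC2 at 11.16 and 11.02 against 11.02 and 10.80 (-0.18, adjusted p = 0.351). HDAC3 rose by 0.72 ± 0.103 (SE, adjusted p = 0.000722). Of 28 class I deacetylases and corepressor subunits, 7 rose (25%) and 10 fell (35.7%), with a median of 0.10. The rises included ING1 (1.41), GPS2 (0.84) and BRMS1 (1.08), a subunit of SIN3 complexes that changed 2-fold with FK228 only and differed from both other compounds. The falls included MTA3 (-1.91) and MBD3 (-1.03) of the NuRD complex and TBL1XR1 (-1.59) of the NCoR complex.

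Among 13 class II and IV deacetylases and sirtuins, 4 rose (30.8%) and 3 fell (23.1%), shares near those of all tested genes, with SIRT7 at 1.04, SIRT2 at 0.83, HDAC11 at 0.70, SIRT5 at -0.78 and HDAC4 at -0.37. Of 21 acetyltransferases and bromodomain readers, 3 rose and 11 fell, with a median of -0.52. The falls were led by BRPF3 and BRD1, subunits of MOZ-type and HBO1 complexes, both at -1.69, and by the acetyltransferase CREBBP at -1.37. CREBBP went from 8.84 and 8.68 to 7.35 and 7.43 and differed from both other compounds (-0.64 and -0.74). Of its 3 probe sets 2 moved down, with a mean of -0.68 over the 3, and it met the criteria in 1 of the 8 fits that left out an array. Of 17 histone genes 11 rose and 1 fell, with a median of 0.48: H2BC5 rose by 1.76, H2AC6 by 1.66 and H1-2 by 1.53, and MACROH2A2 fell by 1.74.

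Most mitosis genes fell, while most CDK inhibitors rose. All 7 tested CDK inhibitors were called, 5 higher and 2 lower, although the calls of CDKN2A (-0.24) and CDKN2B (1.40) were lost under other settings or with an array left out. CDKN1A went from 9.82 and 9.86 to 10.78 and 10.79, a 1.92-fold rise that did not differ by the test from largazole (0.86, adjusted p = 0.613) or SAHA (0.95, adjusted p = 0.977). CDKN2D, an inhibitor of CDK4 and CDK6, rose by 2.46 and CDKN1C by 2.15, each more than with both other compounds. CDKN1B, which encodes p27, went from 9.61 and 9.51 to 7.75 and 7.68, and its fall of 1.85 on the log2 scale was larger than with largazole (-1.04, adjusted p = 0.0105) and SAHA (-1.02, adjusted p = 0.0134).

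Of 25 cyclins, kinases and phosphatases of the cycle, 2 rose and 12 fell, with a median of -0.36. CCND1 fell by 1.48, WEE1 by 1.65 and E2F3 by 1.24, while CCND3 rose by 1.35. CCNE1 went from 9.01 and 9.16 with vehicle to 9.43 and 9.50 with FK228, a rise of 0.38 against values of -0.27 with largazole and -0.11 with SAHA (adjusted p of the differences 0.00861 and 0.0256), which was not called without the first vehicle array. In the list of 46 genes of mitosis and its spindle checkpoint, 33 fell, 2 rose and the median was -0.55. NDC80, a kinetochore protein, fell by 1.38, and the kinases PLK1 and AURKA by 1.29 and 1.28. HMMR, a spindle protein, fell 2-fold with FK228 only and differed from both other compounds, at -1.11.

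DNA replication genes fell more often than they rose, with 21 of 43 lower (48.8%) and 9 higher (20.9%). Among them, POLE2 changed by -1.21, MCM3 by -0.99 and CDC6 by 0.98. Of 27 homologous recombination and Fanconi genes 15 fell and 7 rose, with FANCL at -1.67, RAD51D at -1.48, NBN at -1.30 and BLM at 0.71.

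Survival genes fell more often than they rose, while p53 targets and pro-apoptotic genes were divided at shares near or somewhat above those of all tested genes. Of 25 p53 targets, 9 rose (36%) and 7 fell (28%), with PLK3 at 1.40 and TP53INP1 at 1.12 against FAS at -2.41 and TP53I3 at -1.50. Of 21 pro-apoptotic BCL2 family members and caspases, 7 rose and 7 fell (33.3% each). BCL2L11, which encodes the death inducer BIM, went from 7.70 and 7.55 to 9.15 and 9.37, and all 7 probe sets moved up. Its rise of 1.63 did not differ by the test from largazole (1.63, adjusted p = 0.996) or SAHA (1.67, adjusted p = 0.835). CASP8 fell by 1.58 and HRK by 1.08. Of 14 survival genes 7 fell (50%) and 1, MCL1 (0.85), rose. BCL2L1, which encodes BCL-XL, went from 8.82 and 8.44 to 6.67 and 7.46, with FK228 arrays that stood apart by more than the vehicle arrays did. CFLAR, an inhibitor of caspase-8 activation, fell by 2.21 in the probe set with the highest mean; all 8 of its probe sets moved down, 6 of them called, with a mean of -1.17.

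Genes of ERK output fell more often than they rose, while receptor tyrosine kinases and ligands were divided. Of 30 receptor tyrosine kinases and ligands, 14 rose and 11 fell, with 9 falls of at least 2-fold. The EGF receptor ligand EREG fell by 4.17 and BTC by 2.17, and the receptor MET by 1.61, while EPHB3, RET and EPHA4 rose by 1.60, 1.58 and 1.31. The ephrin ligand EFNA1 fell 2-fold with FK228 only and differed from both others, at -1.38 against -0.91 with SAHA and a fall by 1.00 on the log2 scale with largazole, just short of the limit. EFNA1 met the criteria in 0 of the 8 fits that left out an array. Of 23 genes of ERK output and feedback, 12 fell and 5 rose, with 9 falls of at least 2-fold. The list's median was -0.64 with FK228, -0.17 with largazole and -0.31 with SAHA. PHLDA1 went from 11.84 and 11.75 to 8.48 and 8.55, and SPRY2, a feedback inhibitor, from 6.73 and 6.69 to 4.62 and 4.60. PHLDA1 fell by 3.28 with FK228 against -1.21 and -1.37 (adjusted p of the differences 0.000356 and 0.000645). EGR1 rose by 1.30 and did not differ by the test from the other compounds (adjusted p of 0.995 and 0.615).

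AP-1 and immediate-early genes rose in 14 of 23 cases and fell in 5, with a median of 0.65. ZFP36, which promotes decay of AU-rich mRNA, went from 8.25 and 8.50 to 10.17 and 10.13, opposite to its relative ZFP36L1. KLF2, an endothelial and T cell quiescence factor, rose by 1.59 and differed from both other compounds, with 0.91 for largazole and 0.81 for SAHA, but the probe set left without those ending in _x_at or _s_at gave 0.26 (adjusted p = 0.28). FOSL1 fell by 2.08 and BHLHE40, a circadian repressor, by 2.68.

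TGF-beta and BMP genes fell more often than they rose. Of 34 TGF-beta and BMP genes, 16 fell (47.1%), 12 of them at least 2-fold, and 10 rose (29.4%), against 27.1% and 25.7% of all tested genes. The median was -0.33 with FK228, -0.04 with largazole and -0.14 with SAHA. The receptor TGFBR2 went from a mean of 8.97 with vehicle to 6.49 and 6.37 with FK228, and its fall of 2.54 exceeded those with largazole (-1.05, adjusted p of the difference = 0.00113) and SAHA (-1.40, adjusted p of the difference = 0.00294). The BMP targets ID1 and SMAD6 and the ligand GDF15 changed 2-fold with FK228 only and differed from both others, at -1.57, -1.59 and -1.25. PMEPA1 and BAMBI, antagonists of the pathway, rose by 3.96 and 2.13, with PMEPA1 starting from 4.25 and 3.78, below the level filter.

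Of 27 Wnt genes 9 fell (33.3%) and 7 rose (25.9%), near the shares among all tested genes. RNF43, a ubiquitin ligase that removes Wnt receptors, fell by 2.79 and BMP4 by 2.09, both further than with the other compounds. DKK1 rose by 0.91, which was less than with largazole (1.43, adjusted p of the difference = 0.0164) and SAHA (1.29, adjusted p of the difference = 0.0484). Of 24 Notch genes 11 rose and 4 fell. The repressor genes HEY1, HEY2 and HES2 rose by 3.82, 2.52 and 1.58, with HEY2 starting from 3.35 and 3.29, below the level filter. The ligand JAG1 went from 9.70 and 9.50 to 9.28 and 9.34, a change of -0.29 (adjusted p = 0.0404) against 0.18 with largazole and 0.26 with SAHA, and its call was lost without the level filter and in 5 of the 8 fits that left out an array. LFNG, a glycosyltransferase that modifies Notch, rose 2-fold with FK228 only and differed from both others, at 1.11.

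Homeobox genes had the lowest median of the lists described here, -1.04 with FK228 against -0.60 for largazole and -0.78 for SAHA. Of 25 HOX and TALE genes 14 fell, 13 of them at least 2-fold, and 3 rose. MKX fell by 5.04, and MEIS2, a HOX cofactor, went from 8.22 and 8.07 to 6.87 and 6.62 and differed from both other compounds.

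Junction, integrin and focal adhesion genes fell more often than they rose, while mesenchymal genes and regulators of actin and microtubules did not. Of 33 genes of epithelial junctions and polarity 14 fell (42.4%) and 9 rose (27.3%). The desmosomal cadherins DSC2 and DSC3 fell by 2.54 and 2.32, GRHL2 fell by 1.69, and GRHL1 rose by 1.70. The tight junction gene CLDN4 went from 8.46 and 8.32 to 6.78 and 6.68 and differed from both other compounds. CLDN1 rose by 1.10 from 3.84 and 4.06, below the level filter. Of 30 integrin, laminin and focal adhesion genes 13 fell (43.3%) and 3 rose (10%), with TNS3 at -2.09, ITGB8 at -1.54 and NEDD9 at 4.18. NEDD9 started from 2.47 and 2.14 with vehicle, below the level filter. Of 13 mesenchymal genes 6 rose and 3 fell, with SNAI2 at 3.98, ZEB1 at 0.99 and TWIST1 at -1.23. SNAI2 started from 3.65 and 3.10, also below the filter. Of 37 regulators of actin and microtubules 13 rose (35.1%), 8 of them at least 2-fold, and 10 fell (27%). MAP2 rose by 2.31 and TUBB2A by 1.33, and MARCKS fell by 0.96, against -0.17 with largazole (adjusted p of the difference = 0.0241) and -0.42 with SAHA (adjusted p of the difference = 0.0835).

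Neuronal genes that passed the level filter rose more often than they fell. Of 45 listed genes 31 passed, and of these 17 rose and 2 fell, with a median of 0.36. A gene low with vehicle could pass through treated arrays alone, so this excess of rises is partly fixed by the filter. NCAM1 went from 3.73 and 3.76, below the level filter, to 6.79 and 7.10, and DPYSL4 from 5.73 and 5.53 to 8.60 and 8.71. DPYSL4 rose further than with both other compounds, while NCAM1 differed from SAHA (adjusted p = 0.0326) and not by the test from largazole (adjusted p = 0.113). The same limit holds for the germline list, in which 10 of 32 genes were tested. Of these 10, 3 rose (30%) and 1 fell (10%), with TEX14 at 1.48 and PRAME at -0.55. Of 26 Kruppel-like factors and intestinal differentiation genes 8 fell (30.8%) and 5 rose (19.2%), near the shares among all tested genes, among them HNF4G at -1.94, KLF3 at -1.16 and the carbonic anhydrase CA2 at 0.88.

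**Figure D3:**
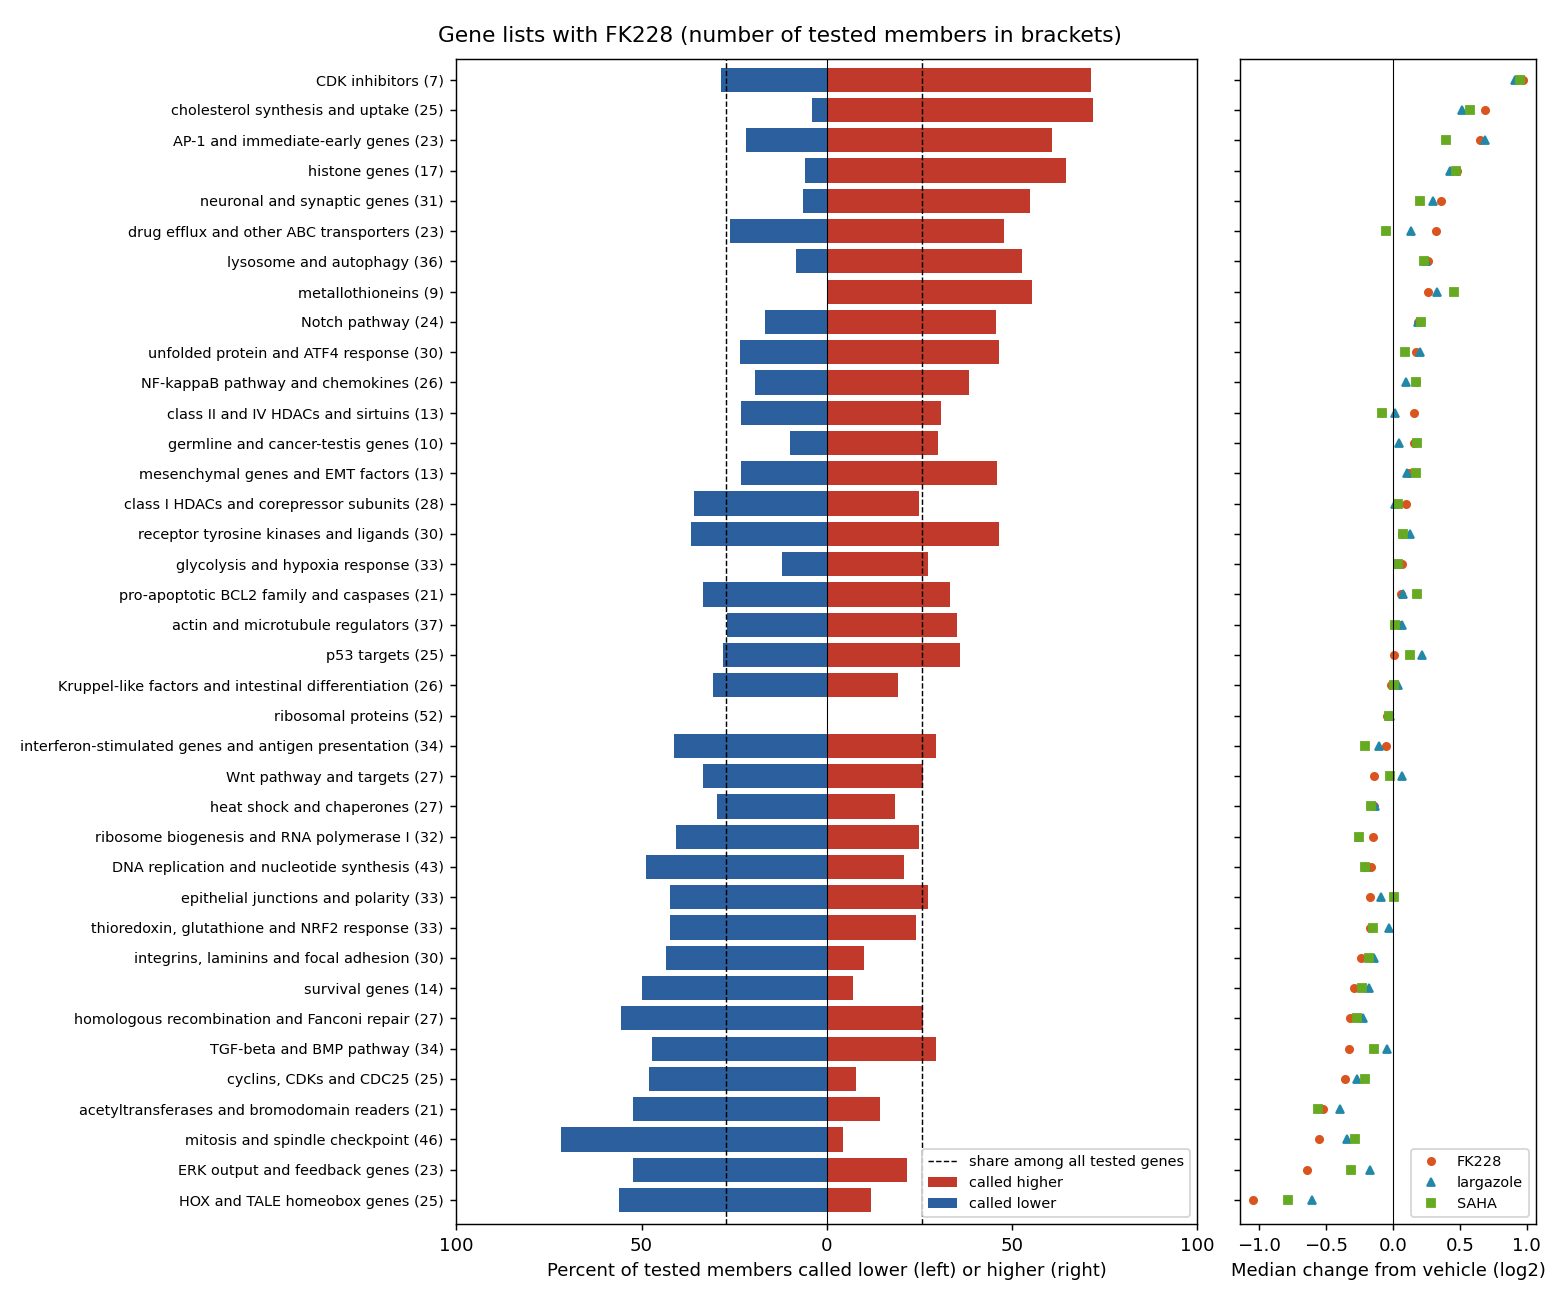
Bars give the percentage of each list's tested members called lower (left, blue) or higher (right, red) with FK228, with dashed lines at the shares among all tested genes, 27.1 and 25.7; the symbols give each list's median log2 change from the shared vehicle arrays for the 3 compounds. CDK inhibitors and cholesterol genes stand at the top with medians of 0.97 and 0.69, and mitosis, ERK output and homeobox genes at the bottom.

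Most cholesterol genes rose, and lysosomal genes rose more often than they fell. Of 25 genes of cholesterol synthesis and uptake 18 rose and 1 fell, with a median of 0.69. The fall was that of the desaturase SCD (-0.32), whose call was lost without the level filter, without the second FK228 array and without the first vehicle array. INSIG1, a sterol sensor, went from 9.25 and 8.93 to 11.72 and 11.60, and the isomerase IDI1 rose by 1.79 and the reductase TM7SF2 by 1.20. Of 36 genes serving lysosomes or autophagy 19 rose and 3 fell. The sialidase NEU1 went from 7.62 and 7.76 to 10.73 and 10.79, an 8.4-fold rise that was larger than with both other compounds. NPC1, which exports cholesterol from lysosomes, rose by 1.99 and MAP1LC3B, the autophagosome protein LC3B, by 1.68. The lysosomal calcium channel MCOLN1 rose 2-fold with FK228 only and differed from both other compounds, at 1.36 against 0.92 and 0.90. Of 9 metallothionein and zinc genes 5 rose and 0 fell in limma, with 6 higher and 0 lower at an unadjusted p under 0.05, and the zinc-sensing factor MTF1 rose by 1.22.

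Stress responses gave mixed counts. Of 30 genes of the unfolded protein and ATF4 response 14 rose and 7 fell. The 4 genes here that changed 2-fold with FK228 only also differed from both other compounds. They are HERPUD1 and SEL1L, which serve degradation at the endoplasmic reticulum, the stress factor DDIT3 (CHOP) and CHAC1, although HERPUD1 and SEL1L met the criteria in 0 of the 8 fits that left out an array. DDIT3 went from 7.63 and 7.67 to 8.97 and 8.96, with changes of 1.31, 0.57 and 0.73 for FK228, largazole and SAHA. The ATF4 targets TRIB3 and ATF5 changed by -1.31 and -1.23 with FK228 and by -1.16 and -1.21 with largazole.

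Of 27 heat shock genes and chaperones 8 fell (29.6%) and 5 rose (18.5%), and the 48.1% called lay below the 52.8% of all tested genes. DNAJB1 rose by 2.09 and HSPA2 by 2.02, and BAG2 fell by 2.19. HSPB8 and DNAJB4 fell 2-fold with FK228 only and differed from both others, though HSPB8 gave -0.04 from the probe set left without those ending in _x_at or _s_at. Of 33 thioredoxin, glutathione and NRF2 genes 14 fell and 8 rose. KEAP1, the inhibitor of NRF2, fell by 2.48, and the cystine transporter SLC7A11 by 2.31. TXNIP, an inhibitor of thioredoxin, was at 5.32 and 5.42 with vehicle and 5.30 and 5.09 with FK228 (-0.17, adjusted p = 0.184). Of 33 glycolysis and hypoxia genes 9 rose (27.3%) and 4 fell (12.1%), and the 39.4% called lay below that of all tested genes. EGLN1, an oxygen-sensing hydroxylase, went from 9.92 and 9.76 to 8.93 and 8.91, further than with both other compounds (-0.36 and -0.35).

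In the remaining lists, 52 tested ribosomal protein genes gave 0 calls in limma and 0 at an unadjusted p under 0.05, with a median of -0.04. Of 32 ribosome biogenesis genes 13 fell and 8 rose. LYAR rose by 0.82 with FK228 against 0.19 with largazole and 0.34 with SAHA (adjusted p of the differences 0.00882 and 0.0237). Of 34 interferon-stimulated and antigen presentation genes 14 fell and 10 rose, with OASL at 1.63, PSMB9 at 1.12, IFIH1 at -1.62 and SAMD9 at -1.61, the last changed 2-fold with FK228 only and differing from both others. Of 26 NF-kappaB and chemokine genes 10 rose and 5 fell. NFKBIZ rose by 2.25, and NFKB1 and its inhibitor NFKBIA fell by 2.63 and 2.03. Of 23 ABC transporters 11 rose and 6 fell. ABCB1, the drug efflux pump that carries FK228, went from 4.91 and 5.20 to 6.82 and 6.95, and its rise of 1.83 did not differ by the test from largazole (1.98, adjusted p = 0.623) or SAHA (2.03, adjusted p = 0.52).

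Promoter letters differed along the size of the change. RefSeq promoters, 250 bases before to 50 after the first listed start, were found for 10762 of 13381 tested genes. CCAAT on either strand occurred in 36.4% of them and in 35.7% of all 27305 promoters in the table. The share was 48.5% among 676 promoters of genes at least 2-fold higher and 27.4% among 835 of genes at least 2-fold lower. It moved with the size of the change, from 27.1% at 4-fold lower or more, through 35.6% among genes not called, to 51.8% at 4-fold higher or more. Among genes with 1 listed start these 3 shares were 23.5%, 35.9% and 56.5%. Genes share promoter composition and are not independent replicates, and no test was run.

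The rises with FK228 only that differed from both other compounds held CCAAT in 34 of 60 promoters, 56.7%, and the falls in 28 of 83, 33.7%. Neither of the rises shown first had a match, so 2 others were picked after their values were seen, as the largest rises of that class with at least 2 matches and 1 listed start. TPRG1L, at chr1:3624765-3625014 on the plus strand, went from 9.13 and 9.15 to 10.74 and 10.79. TPRN, at chr9:137200742-137200991 on the minus strand, went from 6.67 and 6.63 to 8.13 and 8.37.
TPRG1L: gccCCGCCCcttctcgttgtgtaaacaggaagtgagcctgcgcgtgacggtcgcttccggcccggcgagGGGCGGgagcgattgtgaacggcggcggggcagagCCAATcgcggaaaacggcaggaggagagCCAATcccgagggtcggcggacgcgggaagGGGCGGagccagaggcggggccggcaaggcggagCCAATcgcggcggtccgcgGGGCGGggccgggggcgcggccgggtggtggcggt
TPRN: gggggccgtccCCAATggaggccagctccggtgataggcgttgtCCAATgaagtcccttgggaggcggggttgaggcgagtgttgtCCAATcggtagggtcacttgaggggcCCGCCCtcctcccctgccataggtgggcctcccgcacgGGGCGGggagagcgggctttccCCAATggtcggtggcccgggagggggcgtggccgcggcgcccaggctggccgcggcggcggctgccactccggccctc
The window of TPRG1L held CCAAT 3 times and that of TPRN 4 times, and both held GGGCGG as well, 4 and 2 times.

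In percentage points, the other letters differed less between the 2-fold higher and 2-fold lower genes than CCAAT did. GGGCGG, the GC box, occurred in 75.7% of promoters of genes at least 2-fold higher, 67.3% of those at least 2-fold lower and 69.2% of all tested. TATAAA occurred in 9.02%, 7.07% and 5.84%, CACGTG in 7.84%, 10.5% and 10%, TGACGTCA, which is rare, in 4.29%, 1.8% and 3.15%, and TGACTCA in 3.11%, 4.67% and 3.09%. All were searched on both strands, and matches to different motifs could overlap. The median GC content was 67.7% in the promoters of the higher genes and 65.3% in both other sets, so base composition moved with the higher genes, and its part in these shares was not tested.

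**Figure D4:**
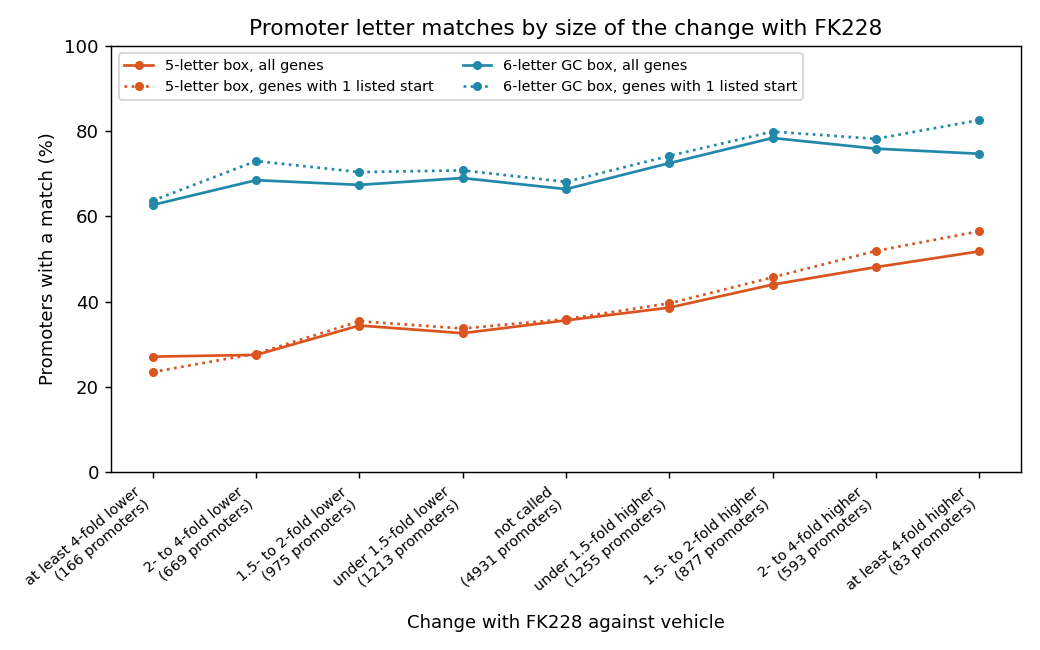
The vertical axis gives the percentage of RefSeq promoters with at least 1 match on either strand and the horizontal axis bins tested genes by their change with FK228; the 5-letter box (orange) is CCAAT and the 6-letter GC box (blue) is GGGCGG, with dotted lines for genes with 1 listed start. The orange line stands at 27.1 at the left end, 35.6 in the middle and 51.8 at the right end.

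Neighbouring genes sometimes moved together. Along the RefSeq order of 13368 tested genes, 23 runs of at least 3 consecutive genes were called and at least 2-fold changed in 1 direction. Of these runs 6 were higher and 17 lower, with 75 genes in all. Among all tested genes 826 were at least 2-fold higher (6.17%) and 1031 at least 2-fold lower (7.7%). At such shares some runs can arise without any link between neighbours, and how many was not tested. Both runs of 5 genes fell. The first was part of the HOXB cluster on chromosome 17, where HOXB5, HOXB6, HOXB7, HOXB8 and HOXB9 changed by -1.17, -3.10, -2.06, -4.10 and -1.61. The other was LINC00938, ARID2, SCAF11, SLC38A1 and SLC38A2 on chromosome 12. TGIF1 fell with its neighbours DLGAP1-AS1, DLGAP1-AS2 and DLGAP1-AS6, at -1.67, -2.10 and -2.96.

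Other runs that fell included the receptor genes TNFRSF1A and LTBR with SCNN1A, a sodium channel subunit, between them, the caveolin genes CAV2 and CAV1 with MET, the desmosomal genes DSC3, DSC2 and DSG2, and PARP9, DTX3L and PARP14. MYEOV fell beside TPCN2 and CCND1, at -1.34, -1.11 and -1.48. Among the runs that rose, RMC1, NPC1 and ANKRD29 changed by 1.52, 1.99 and 1.17. These runs were named after their values were seen, and an antisense RNA and its partner may share signal on the array.

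Genes just inside and outside the 2-fold limit differed by less than their errors. The rises of ROR1, TMEM120A and PDK3 just inside the limit and of SCRN3, LINC01511 and FOXO6 just outside it all round to 1.00. The falls of RIGI, MTCP1 and FUT4 just inside it and of TMEM44, CDC7 and SETMAR just outside it all round to a fall by 1.00 on the log2 scale, with SE between 0.101 and 0.147. CDC7, a replication kinase, thus stays outside the FK228-only genes although it changed by -0.32 with largazole and -0.44 with SAHA.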

How the data were processed

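Expression was measured on 8 one-colour Affymetrix arrays, 2 for each of 4 groups, which were assigned from the sample titles. The deposited values are log2 levels of 54613 probe sets between 1.71 and 14.67, for which the submitters' processing notes list affy, RMA and limma and leave out versions and roles. Raw scans were not used here. Probe sets entered the test if at least 2 of the 8 arrays were at 4.49, the overall median, or above, which left 28985. Of all probe sets 41091 have 1 gene symbol in the platform annotation, 1801 have several and 11721 have none, and 41037 of those with 1 matched RefSeq by gene ID.

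A gene was represented by its tested probe set with the highest mean level among those with 1 symbol, which gave 13381 genes. Array values were fitted with limma 3.58.1 in R 4.3.3, with 1 mean per group over all 8 arrays, 4 residual and 3.69 prior degrees of freedom, and p-values adjusted by Benjamini-Hochberg over the 28985 tested probe sets. FK228 was contrasted with vehicle, largazole and SAHA. An exact permutation test of 2 against 2 arrays cannot go below p = 0.333 and was not used. A gene changed 2-fold with FK228 only was called and at least 2-fold changed with FK228 and not with either other compound in the same direction, and it differed from both where both direct contrasts had an adjusted p under 0.05. The steps were tested on simulated data.

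The text names the 25 largest rises and falls, the 10 FK228-only rises and falls with the largest smaller difference from the other compounds, list members with the largest called changes, the genes at the 2-fold limit and a panel of HDAC inhibitor genes. Other named genes were chosen after their values were seen, among them MYC, ARID5B, TPRG1L, TPRN, HERPUD1, DDIT3, the other FK228-only list members and the neighbouring genes. Members and lists were chosen with earlier results of these data known. Alternatives changed the filter, the prior, the scaling, the probe set rule and the arrays used. Figures were drawn with Python 3.11.15 and matplotlib 3.10.9.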

Additional observations from a re-analysis of the deposited data

Results flagged for a closer look

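Some probe sets with large rises carry no gene symbol in the annotation used here and stand outside the gene-level comparison. Of 4400 tested probe sets without exactly 1 symbol, a pool that also takes in those with several, 922 were called higher and 781 lower with FK228 in limma. Of these, 185 and 209 changed at least 2-fold. Among the 13381 tested genes 3440 were called higher and 3620 lower. The probe set 218559_s_at was at 3.82 and 3.48 in the vehicle arrays and 7.19 and 7.00 in the FK228 arrays, a difference of 3.45 (adjusted p = 2.06e-06, limma), with 3.54 for largazole and 3.08 for SAHA. The probe set 228740_at was at 2.88 and 2.64 with vehicle and 6.16 and 6.12 with FK228, a difference of 3.38. The probe set 218087_s_at was at 5.03 and 4.46 with vehicle and 7.88 and 7.80 with FK228, a difference of 3.09. All 3 drew attention because they carry a signal above the vehicle arrays in data that the gene-level results do not use.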

How the results depend on the processing

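With 1 array left out, genes called higher ranged from 2783 to 3426 and lower from 2983 to 3606, those at least 2-fold changed from 787 to 875 and from 1011 to 1102, and those changed with FK228 only from 226 to 302 and from 299 to 377. Genes that also differed from both other compounds ranged from 8 to 56 rises and from 9 to 68 falls, against 69 and 97. They numbered 36 and 42 without the level filter, 116 and 154 with an intensity trend and robust prior, and 15 and 29 where the other compounds had to stay under 1.5-fold, a limit that left 21 and 37 of all FK228-only genes. The stricter filter of 6.87 gave 114 such rises. These settings change the genes tested, the error or the criteria, and beyond that the cause was not tested. Same-numbered arrays deviated together, with correlations over the tested probe sets of 0.128 to 0.268 in the 6 pairs of groups. The labels do not say what the replicate numbers mark, so the main fit holds no block for them. Whether same-numbered arrays share a source was not tested. With the replicate block 3762 genes were called higher and 3926 lower, and 99 rises and 148 falls differed from both compounds.

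Of the 274 named genes, 5 changed sign under an alternative. Without probe sets ending in _x_at or _s_at, ZMYND8 gave 0.02, ATAD2 -0.08 and BOK 0.20, and as the mean of all probe sets FZR1 gave -0.05 and CTSZ 0.02. A call was lost at least once in 23 named genes. Signal near background limits the size of changes from or to levels under 4.49.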
